A study of Mus musculus with 6 samples.

Results

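Genes that carry 6 or more separate peaks of H3K9ac were examined in lung endothelial cells of the mouse. H3K9ac, acetylation of lysine 9 of histone H3, was mapped by CUT&RUN, in which a nuclease bound through an antibody cuts out the DNA around the mark. A gene was taken as a member when its symbol stood in 6 or more rows of the authors' peak table. Of 11191 genes named in the table, 209 met this rule, and the other 10982 had 1 to 5 peaks. The 209 genes held 1551 of the 17901 peaks (8.66%). Members were thus chosen by the number of peaks in these same libraries, so peak numbers and total levels are given as a description and are not tested. At the edge of the rule, 89 genes had 6 peaks with a median summed count of 1085 over the 6 libraries, and 172 genes had 5 peaks with a median of 996.5.

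Cells came from WT mice, labelled Cre-neg (3 libraries), and CSE-KO mice, labelled Cre-pos (3 libraries). CSE, cystathionine gamma-lyase, is encoded by Cth and makes cysteine from cystathionine. The labels give neither the promoter that drives Cre nor the age or sex of the mice. Nothing in them ties a library to an animal of its own, and the p-values therefore reflect library-to-library spread, part of which may be technical. Total counts over all peaks were 313610 to 676056 in WT and 679938 to 1173016 in CSE-KO libraries, and the ranges did not overlap. In the deposited table, names of normalized columns start with 1 number for WT and another for CSE-KO; the labels do not explain it, and a batch of that kind cannot be told apart from genotype. None of the peaks analysed here was named for Cth, so the values carry no check of the genotype labels. Of 37 listed endothelial receptor and junction genes, 31 had a peak, against 8 of 24 lung epithelial, 4 of 22 leukocyte and 1 of 22 fibroblast and mural cell markers. No gene of the 3 lists for other cell types was a member. Members were 209 of all 11191 genes with a peak, and few genes of these lists had a peak. The most peaks in them were 4, in the lung epithelial markers Foxa2 and Scgb1a1.

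H3K9ac is laid down by acetyltransferases that use acetyl-CoA and is removed by histone deacetylases. It marks the start sites of active genes and active enhancers, the distal elements that raise transcription of a gene in particular cell types. Genes of cell identity and of signalling often have several enhancers in their introns and flanks. In the authors' annotation each peak bears the name of the gene with the nearest transcription start, so a cluster carries a gene's name by distance alone.

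The promoters of these genes differed in whether a peak lay over them and in their sequence. Reference sequences of 300 bases around the start (250 before and 50 after) were found in RefSeq (GRCm38.p6) for 157 of the 209 genes, as 238 windows. A peak overlapped 87 of the windows and none overlapped the other 151. Motifs, bases and CpG were counted only in the 250 bases before the start of each window. On either strand, the GC box GGGCGG, the site of Sp/Klf zinc-finger factors, was found in 54.2% of the members' windows and in 32.7% of all 32851 windows of the same length. It stood in 72.4% of the windows under a peak and in 43.7% of those with none. Base composition moved with it: G and C made up 60.0% of the members' windows and 53.2% of all windows, with a median of 14 and 6 CpG, and 63.1% of the windows under a peak and 58.2% of those with none. The 32851 windows cover 27025 genes, with or without a peak. Shares over the 11191 genes with a peak alone were not computed, so whether these contrasts are particular to genes with many peaks was not tested. The part of base composition in the GC box counts was not tested. The ETS core CCGGAA was found in 7.14% of the members' windows and 12.03% of all windows, the CCAAT box CCAAT in 31.5% and 33.8%, the AP-1 site TGANTCA in 5.04% and 6.75%, and the GATA site AGATAA in 5.88% and 9.99%. Windows of 1 gene can overlap, and a match is a description of letters. The 250 bases before the start of 4 members are printed below to show promoters with and without a peak and with many, few or no GC boxes; capitals mark every match to the 5 motifs on either strand. Etv6 (chr6:134035450-134035699, plus strand), Dock9 (chr14:121797735-121797984, minus strand) and Mecom (chr3:30013205-30013454, minus strand) lay under a peak, and Kdr (chr5:75978456-75978705, minus strand) did not.
Etv6: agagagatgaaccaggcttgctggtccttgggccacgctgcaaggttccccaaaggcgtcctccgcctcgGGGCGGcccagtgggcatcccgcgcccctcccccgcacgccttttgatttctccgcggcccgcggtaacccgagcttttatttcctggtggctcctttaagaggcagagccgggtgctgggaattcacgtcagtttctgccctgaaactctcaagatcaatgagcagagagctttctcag
Dock9: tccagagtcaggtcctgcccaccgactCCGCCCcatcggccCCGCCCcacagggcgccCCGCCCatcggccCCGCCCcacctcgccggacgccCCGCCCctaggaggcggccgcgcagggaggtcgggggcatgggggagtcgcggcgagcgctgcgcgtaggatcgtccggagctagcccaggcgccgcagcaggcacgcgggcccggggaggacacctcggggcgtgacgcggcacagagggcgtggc
Mecom: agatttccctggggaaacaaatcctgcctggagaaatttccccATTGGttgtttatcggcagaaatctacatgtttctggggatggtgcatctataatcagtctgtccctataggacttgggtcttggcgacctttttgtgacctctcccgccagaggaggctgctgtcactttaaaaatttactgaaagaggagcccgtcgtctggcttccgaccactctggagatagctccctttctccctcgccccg
Kdr: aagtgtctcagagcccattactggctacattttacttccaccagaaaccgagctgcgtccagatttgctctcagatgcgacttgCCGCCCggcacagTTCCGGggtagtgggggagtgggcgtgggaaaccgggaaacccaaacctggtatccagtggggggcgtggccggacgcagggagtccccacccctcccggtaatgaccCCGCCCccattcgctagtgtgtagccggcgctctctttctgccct
Dock9, a guanine nucleotide exchange factor for Cdc42, had 5 GC boxes and 78.8% G and C in this window. Etv6, an ETS-family repressor, had 1 GC box. Mecom, a zinc-finger transcription factor, had none and a single CCAAT box. Its window lies before an internal start, as the gene runs from 29951296 to 30509759 on the minus strand. The Kdr window also lies inside its gene (75932827 to 75979072), and the Dock9 window lies partly inside its own (121538365 to 121797900). For a gene with several windows, the first that a peak covered fully was printed where there was one. Kdr, which encodes the VEGF receptor VEGFR2, had 2 GC boxes and 1 ETS core, and its nearest peak was centred 1.59 kb after the start, in the first intron.

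The clusters were made mainly of intronic peaks far from the start. Of the members' peaks, 9.16% were promoter peaks (annotated as such or centred within 1000 bp of the start), against 48.2% of the peaks of other genes. Introns held 63.4% of the members' peaks and 27.7% of the others', and intergenic sequence held 25.5% and 21.8%. Since a promoter seldom holds more than 1 or 2 peaks, the rule on peak number itself lowers the promoter share. Among the 209 genes, 84 had no promoter peak, 108 had 1 and 17 had 2. The strongest peak was a promoter peak in 59 of them. These numbers depend on the 1000 bp limit. In S1pr1, Trib1 and Kdr, counted as without a promoter peak, the strongest peak was centred 1.24, 1.30 and 1.59 kb after the start. With a limit of 2 kb, promoter peaks held a mean of 24.5% of the members' counts in WT and 23.1% in CSE-KO. With 1 kb the means were 15.6% and 14.9%. Peaks that were not at promoters lay a median of 45.9 kb from the start, against 22.5 kb in other genes. Single intronic peaks had a median width of 703 bp and 52.0 CPM (counts scaled to a common library total) per kb in members, and 643 bp and 46.6 in other genes.

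**Figure D1:**
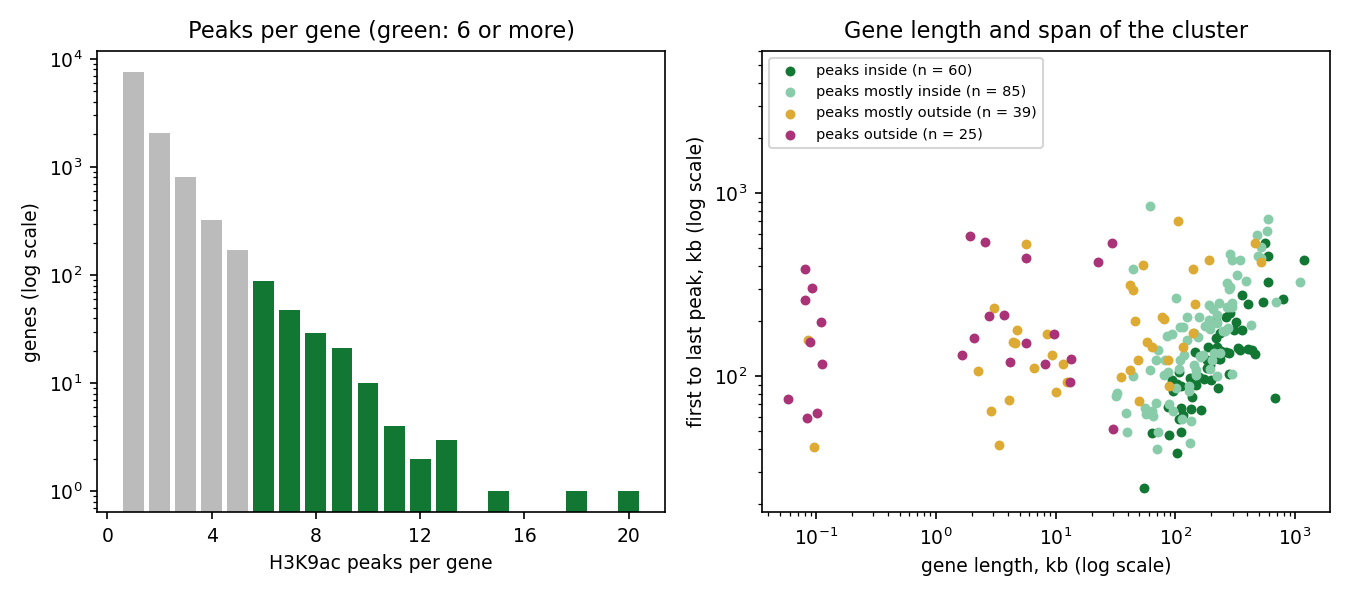
Left, number of genes (log axis) by number of H3K9ac peaks, with the 209 genes of 6 or more peaks in green. Right, distance from the first to the last peak against gene length, both in kb on log axes, 1 point per member, coloured by where its peaks lay; the 25 genes with every peak outside the gene are mostly short.

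The members were long genes. Their median length was 125.5 kb, against 22.4 kb for other genes with a peak, and 58.9% of them exceeded 100 kb, against 12.3%. The first and last peaks of a member lay 24.6 to 856 kb apart, with a median of 138 kb. Of the 1551 peaks, 1000 (64.5%) lay in the body of the gene whose name they carried. All peaks lay in the gene's body in 60 genes, at least an even part in 85, the minority in 39, and none in 25. The median length fell along these classes, from 218 kb to 154, 42.0 and 2.58 kb. How evenly the signal was spread also varied. The strongest peak held a median of 31.4% of a member's counts, from 11.8% in Elmo1 to 66.7% in Tnc, whose strongest peak was centred 1.06 kb from its start. Summed over a member's peaks, the level per kb of peak had a median of 55.6 CPM per kb, from 37.3 in Mtss1, a membrane-bending actin regulator gene, to 102 in Tnc, an extracellular matrix gene. Tcf4, with 18.7 kb of peaks, stood at 82.0 CPM per kb, and Tcf4 had the most counts of any member (6488 over the 6 libraries).

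Several cluster names belonged to small noncoding genes inside a long coding gene. By biotype, the members were 181 protein-coding genes, 16 long noncoding RNAs, 11 microRNAs and 1 transcribed pseudogene. Of 186 peaks named for the noncoding members, 107 overlapped a coding gene. All 8 peaks of Mir496b lay in Gnaq, which encodes a G protein alpha subunit. All 8 of Mir701 lay in Ttc28, and all 8 of Rptoros lay in Rptor, which encodes the Raptor subunit of mTORC1. Pde4d, a cAMP phosphodiesterase gene of 1302 kb, had 14 peaks in its body, of which 2 bore its own name, while the 6 peaks of Mir582 and the 6 of Mir1904 made up the rest. Ptprm, a receptor tyrosine phosphatase gene of endothelial junctions, likewise had 14 peaks in its body, and 7 of them bore its name. Trib1 and Sp5 are short coding genes of the same kind: 7 of 10 Trib1 peaks lay in Nsmce2, and 5 of 7 Sp5 peaks lay in Myo3b.

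When peaks were counted by the coding gene body they overlapped, whatever their name, 175 coding genes held 6 or more, of which 101 were members and 74 were not. Tcf4 then held 23 peaks, Elmo1 17, and Foxp1, Pde4d and Ptprm 14 each. Clusters also lay side by side: 15 pairs of members stood within 100 kb of each other with no other peak in between. Tcf4 and Ccdc68 together formed a run of 28 peaks over 743 kb, in which 4 of the 8 Ccdc68 peaks overlapped Tcf4. Pvt1, a long noncoding RNA gene, and H2afy3 formed a run of 17 peaks over 686 kb on chromosome 15. Hmga2 and the long noncoding RNA gene 4921513I03Rik formed a run of 13 over 244 kb on chromosome 10. In 9 of the 15 pairs both clusters had a log2 fold change (CSE-KO over WT) of the same sign.

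The 209 genes held nearly the same share of all counts in both genotypes, and no gene total passed the test. Summed counts per gene were compared with edgeR's quasi-likelihood test over all 10569 genes that passed the count filter. None of the 209 members had a Benjamini-Hochberg adjusted p under 0.05, where 0.123% of all tested genes did (13 genes). The smallest adjusted p of a member was 0.229, for Scn3a. By DESeq2, members called were also 0. With peaks on the retroviral repeat MuLV-int left out of the edgeR fit, 2 genes were called over all genes, and 0 members. At an unadjusted p under 0.05, 19 members (9.09%) were higher and 8 (3.83%) were lower in CSE-KO. Over all genes these shares were 3.04% higher and 3.83% lower. Members had a median count per library of 235 against 49.3 for all genes, and among the 1650 genes with 1 to 5 peaks and a mean count of 100 or more, 54 (3.27%) were higher and 79 (4.79%) lower. Without CSE-KO 1 the members' counts were 7 higher and 5 lower, and by DESeq2 10 and 6. The median log2 fold change (CSE-KO over WT) of the members was 0.02, against 0.00 over all genes, and ranged from -0.44 to 0.47. The 95% interval of the fold change lay within 2-fold for all 209 genes and within 1.5-fold for 197.

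**Figure D2:**
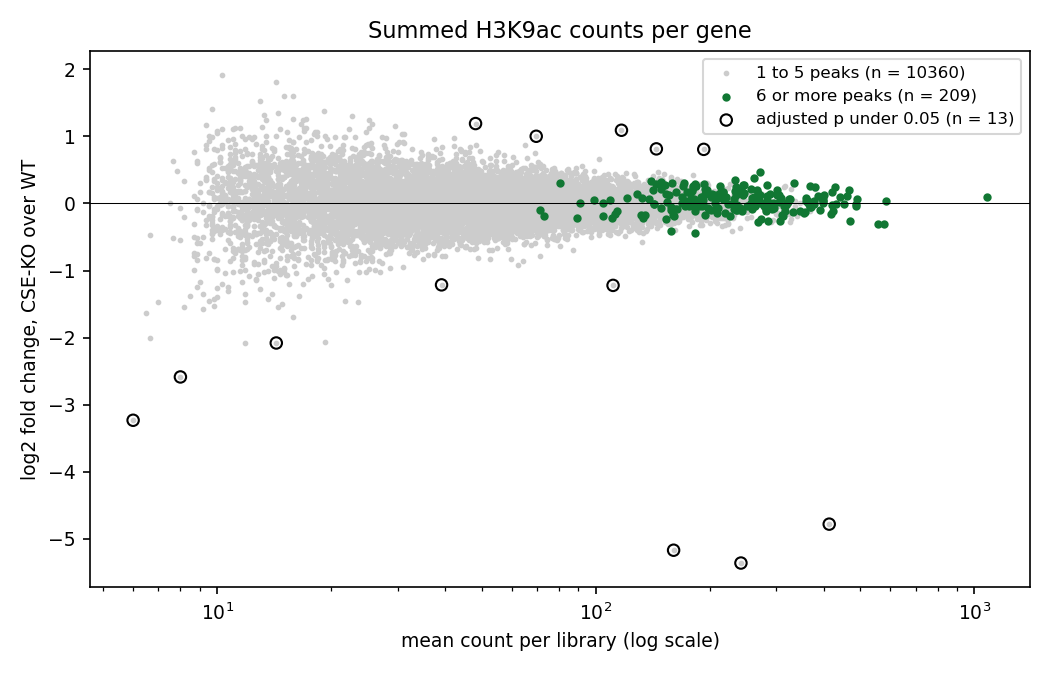
Log2 fold change of summed H3K9ac counts (CSE-KO over WT) against the mean count per library (log axis) for 10569 tested genes; green points are the 209 genes with 6 or more peaks and open circles the 13 genes with adjusted p under 0.05. The green points lie between -0.44 and 0.47 and carry no circle.

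More members had a value above 0 than below, and the same held for genes with 5 peaks. A log2 fold change above 0 was seen in 118 of 209 members (56.5%), in 101 of 172 genes with 5 peaks (58.7%) and in 49.5% of all tested genes. The 3 CSE-KO libraries all stood above the 3 WT libraries for 26 members and all below for 11. These were 12.4% and 5.26% of the members. Over all tested genes, 6.07% stood above and 6.38% below, and over the 1650 genes with 1 to 5 peaks and a mean count of 100 or more, 4.36% and 7.09%. By position, 9 stood above and 1 below among the 60 genes with every peak inside the body, 10 and 5 among the 85 mostly inside, 1 and 3 among the 39 mostly outside, and 6 and 2 among the 25 with every peak outside.

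The share of all counts held by the 209 genes was 7.70, 7.52 and 7.59% in the WT libraries and 7.89, 7.74 and 7.80% in the CSE-KO libraries. The mean was 7.60% ± 0.090 (SD, n = 3) in WT and 7.81% ± 0.073 (SD, n = 3) in CSE-KO, and the groups did not overlap. The difference of 0.205 percentage points gave p = 0.10 in an exact two-sided permutation test, the smallest p that 3 against 3 libraries allow. Ordered by this share, the 6 libraries stood in the same order as by total count, so depth and genotype cannot be told apart here. Over distal peaks alone, the members' share was 16.2, 15.8 and 16.0% in WT and 16.6, 16.2 and 16.4% in CSE-KO. Promoter peaks held 15.03, 16.01 and 15.68% of the members' counts in WT and 14.6, 15.2 and 14.8% in CSE-KO. These groups overlapped, and the difference of -0.71 percentage points gave p = 0.20 in the exact two-sided permutation test. The deepest library had the lowest promoter share and the shallowest the highest. In other genes the promoter share was 63.3 to 63.6% in every library.

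**Figure D3:**
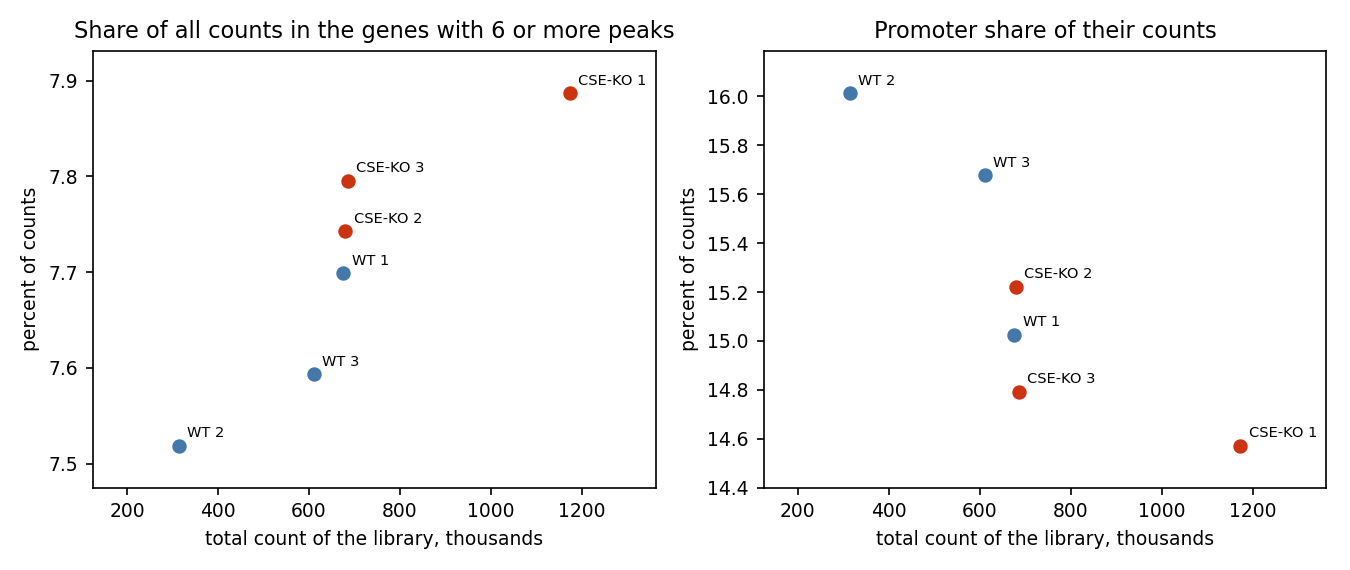
Percent of all counts held by the 209 genes (left) and percent of their counts in promoter peaks (right) against the total count of each library, 1 point per library (WT blue, CSE-KO red). The left share climbs with depth from 7.52 to 7.89%; both vertical axes start above 0.

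Transcription factor genes held 2 of the 3 largest clusters. Tcf4, which encodes the E-protein E2-2, had 20 peaks on chromosome 18 (69196038 to 69624577), 18 of them in introns. Its summed level was 1618, 1291 and 1529 CPM in WT and 1621, 1668 and 1478 in CSE-KO. The groups overlapped, and the log2 fold change was 0.10 ± 0.078 (SE), or 0.013 without WT 2. The strongest Tcf4 peak, 177 kb into the gene, averaged 292 CPM in WT and 275 in CSE-KO, while the promoter peak averaged 64.1 and 61.3. Foxp1, a forkhead repressor, had 15 peaks over 727 kb of chromosome 6, at 876, 886 and 730 CPM in WT and 923, 785 and 844 in CSE-KO, again overlapping. Etv6 had 11 peaks, all inside the gene, and its log2 fold change was 0.09 ± 0.098 (SE). Foxo1, a forkhead factor held back by insulin and growth factor signalling, had 6 peaks and a log2 fold change of 0.26 ± 0.14 (SE, unadjusted p = 0.070, adjusted p = 0.744), which was 0.14 without WT 1 and 0.42 without WT 2. Of 32 listed endothelial transcription factor genes, 28 had a peak, 4 were members, and none passed the test in either direction.

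Elmo1 and Dock9 belong to the machinery that activates small GTPases of the actin skeleton, and both had clusters mostly inside the gene. Elmo1, the partner of Dock-family exchange factors, had 18 peaks over 509 kb of chromosome 13. Its level was 626, 530 and 528 CPM in WT and 637, 582 and 695 in CSE-KO, with overlap between 1 WT and 1 CSE-KO library and a log2 fold change of 0.18 ± 0.10 (SE). Dock9 (13 peaks) stood at 738, 623 and 656 CPM in WT and 801, 610 and 712 in CSE-KO. Those groups overlapped, and the log2 fold change was 0.07 ± 0.098 (SE).

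The receptor genes S1pr1 and Kdr had clusters that lay mostly outside the gene. S1pr1, the receptor for sphingosine-1-phosphate that steadies vessels, is 4.62 kb long and had 11 peaks spread over 152 kb, 9 of them intergenic and none counted at the promoter. Its level was 544, 498 and 559 CPM in WT and 538, 557 and 561 in CSE-KO, which overlap. Kdr had 10 peaks over 201 kb, 8 of them intergenic. It stood at 483, 504 and 387 CPM in WT and 439, 342 and 349 in CSE-KO, so WT 3 lay among the CSE-KO values. Its log2 fold change was -0.26 ± 0.12 (SE, unadjusted p = 0.031, adjusted p = 0.682), and 9 of its 10 peaks had a value below 0. Leaving out 1 library at a time gave a log2 fold change from -0.40 (without CSE-KO 1) to -0.19. Nrp2, a co-receptor for VEGF-C and semaphorins, had 6 peaks and a log2 fold change of -0.0039. Of the 37 listed receptor and junction genes, 3 were members and none passed the test in either direction.

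In the BMP and TGF-beta pathway, 27 of 30 listed genes had a peak and 3 were members. Smad3, the receptor-regulated Smad of TGF-beta signalling, had 7 peaks, all in introns, at 486, 430 and 548 CPM in WT and 574, 589 and 584 in CSE-KO. All 3 CSE-KO libraries stood above WT, and the log2 fold change of 0.24 ± 0.10 (SE) had an adjusted p of 0.658 by edgeR. Smad6, an inhibitory Smad of the BMP branch, had 7 peaks and a log2 fold change of 0.06. Ski, a co-repressor of Smads, had 10 peaks and a value of 0.01. None of the 27 genes passed the test in either direction.

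Among 29 listed AP-1 and immediate early genes, 27 had a peak, and Fos and Dusp1 were members. Fos, a subunit of AP-1, had 6 peaks within 42.0 kb, and Dusp1, a phosphatase of MAP kinases, had 7 within 64.1 kb, nearly all outside these short genes. Their log2 fold changes were 0.17 ± 0.13 (SE) and 0.09 ± 0.099 (SE). Among 26 listed genes of histone acetylation and deacetylation, 22 had a peak, and the co-activator gene Ncoa3 (7 peaks, log2 fold change 0.18) was among the members. Of 30 genes of cysteine, sulfide and the amino acid response, 25 had a peak, none was a member, and the most peaks were 5, in Slc38a2 and Slc7a1, both amino acid transporters. No gene of these 3 lists passed the test in either direction.

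The remaining genes of the 12 with most peaks also overlapped between genotypes, with 1 exception. Asap1, an Arf GTPase-activating protein gene (13 peaks), had a log2 fold change of 0.11, Frmd4a, a scaffold of cell polarity (13 peaks), -0.01, and Rbms1, an RNA-binding protein gene (12 peaks), -0.03. Mgat5, an enzyme of N-glycan branching, had 11 intronic peaks and a value of 0.10. Xxylt1, a xylosyltransferase of Notch glycans, had 11 peaks and stood at 400, 376 and 407 CPM in WT and 493, 421 and 446 in CSE-KO. Those groups did not overlap, and the log2 fold change of 0.20 ± 0.11 (SE) had an adjusted p of 0.744 by edgeR; without CSE-KO 1 it was 0.13.

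**Figure D4:**
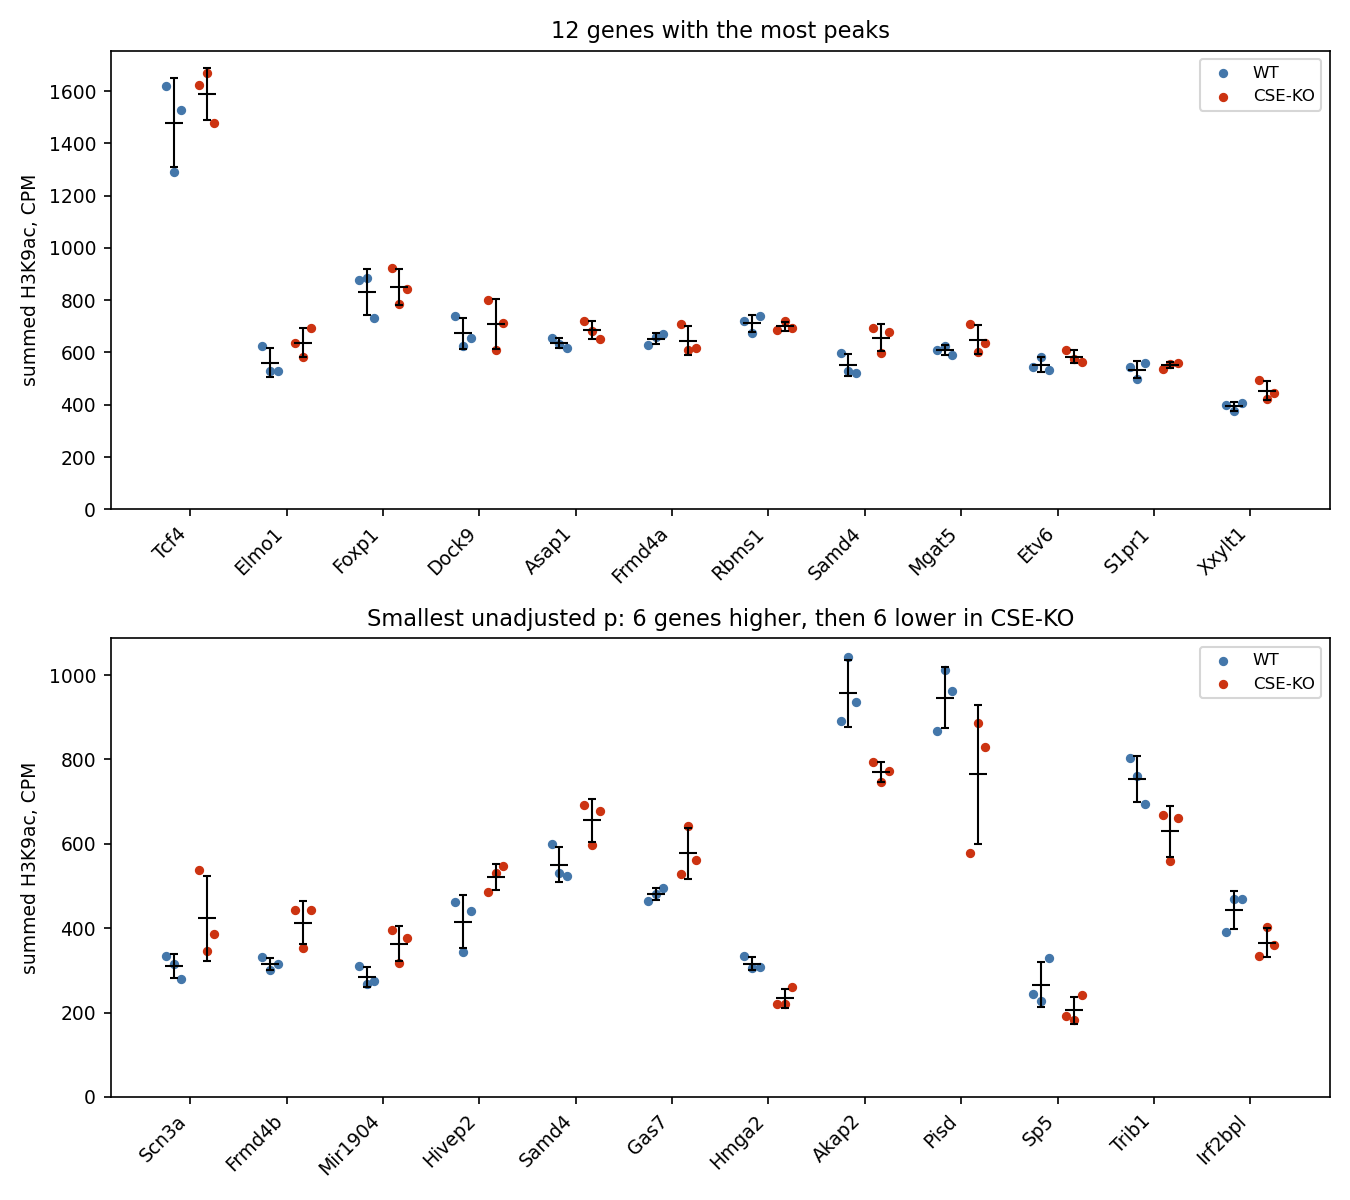
Summed H3K9ac level (CPM, linear axis from 0) of the 12 genes with the most peaks (top) and of the 6 genes with the smallest unadjusted p in each direction (bottom), 1 point per library (WT blue, CSE-KO red) with mean and SD bars (n = 3). In the top panel only Xxylt1 has groups that do not overlap; in the bottom panel Scn3a is above WT and Hmga2 below WT in every CSE-KO library.

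Ranked by unadjusted p, the 6 members most above WT were Scn3a, Frmd4b, Mir1904, Hivep2, Samd4 and Gas7, and none passed the adjusted threshold. Scn3a, a neuronal voltage-gated sodium channel gene, had 7 peaks inside the gene on chromosome 2 (65479037 to 65567471). Its level was 335, 315 and 279 CPM in WT and 538, 347 and 385 in CSE-KO. The log2 fold change was 0.47 ± 0.13 (SE, adjusted p = 0.229), and all 6 tested peaks had a value above 0, from 0.16 to 0.69. Without CSE-KO 1, its highest library, the fold change was 0.24. Frmd4b, a FERM-domain scaffold gene and paralog of Frmd4a, stood at 331, 302 and 315 CPM in WT and 443, 354 and 443 in CSE-KO, a log2 fold change of 0.38 ± 0.12 (SE). Its 6 peaks also had values above 0, and so did the 7 of Hivep2, a zinc-finger factor gene (0.30 ± 0.11 SE). Mir1904, whose 6 peaks lie in Pde4d, had 0.35 ± 0.12 (SE), and Gas7 had 0.26 ± 0.10 (SE). CSE-KO libraries stood above every WT library in these 5 genes, whereas Samd4 overlapped.

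The 6 members most below WT were Hmga2, Akap2, Pisd, Sp5, Trib1 and Irf2bpl, again with no adjusted p under 0.05. Hmga2, an architectural chromatin protein of growing cells, had 7 peaks on chromosome 10 (120473448 to 120618087) and stood at 334, 305 and 308 CPM in WT and 220, 221 and 260 in CSE-KO. The log2 fold change was -0.44 ± 0.13 (SE, adjusted p = 0.332), and all 6 tested peaks had a value below 0. The 3 peaks near its start had -1.17, -0.43 and -0.57, and the 3 intergenic ones, 108 to 141 kb upstream by centre, had -0.54, -0.27 and -0.10. The adjoining cluster of 4921513I03Rik had -0.17. Akap2, an anchor of protein kinase A, stood at 891, 1044 and 935 CPM in WT and 794, 747 and 772 in CSE-KO, so the groups did not overlap. Its log2 fold change was -0.30 ± 0.087 (SE), with an adjusted p of 0.332 by edgeR. Trib1, a pseudokinase gene, had -0.25 ± 0.095 (SE) with groups that did not overlap. Pisd (-0.31), Sp5, a zinc-finger factor gene (-0.41), and Irf2bpl (-0.27) had overlapping groups. Without CSE-KO 1 the value of Pisd was -0.13, and without WT 3 that of Sp5 was -0.22. Pisd, a mitochondrial phospholipid enzyme gene, has pseudogene copies in the genome, and its counts are uncertain where reads could fall to either.

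**Figure D5:**
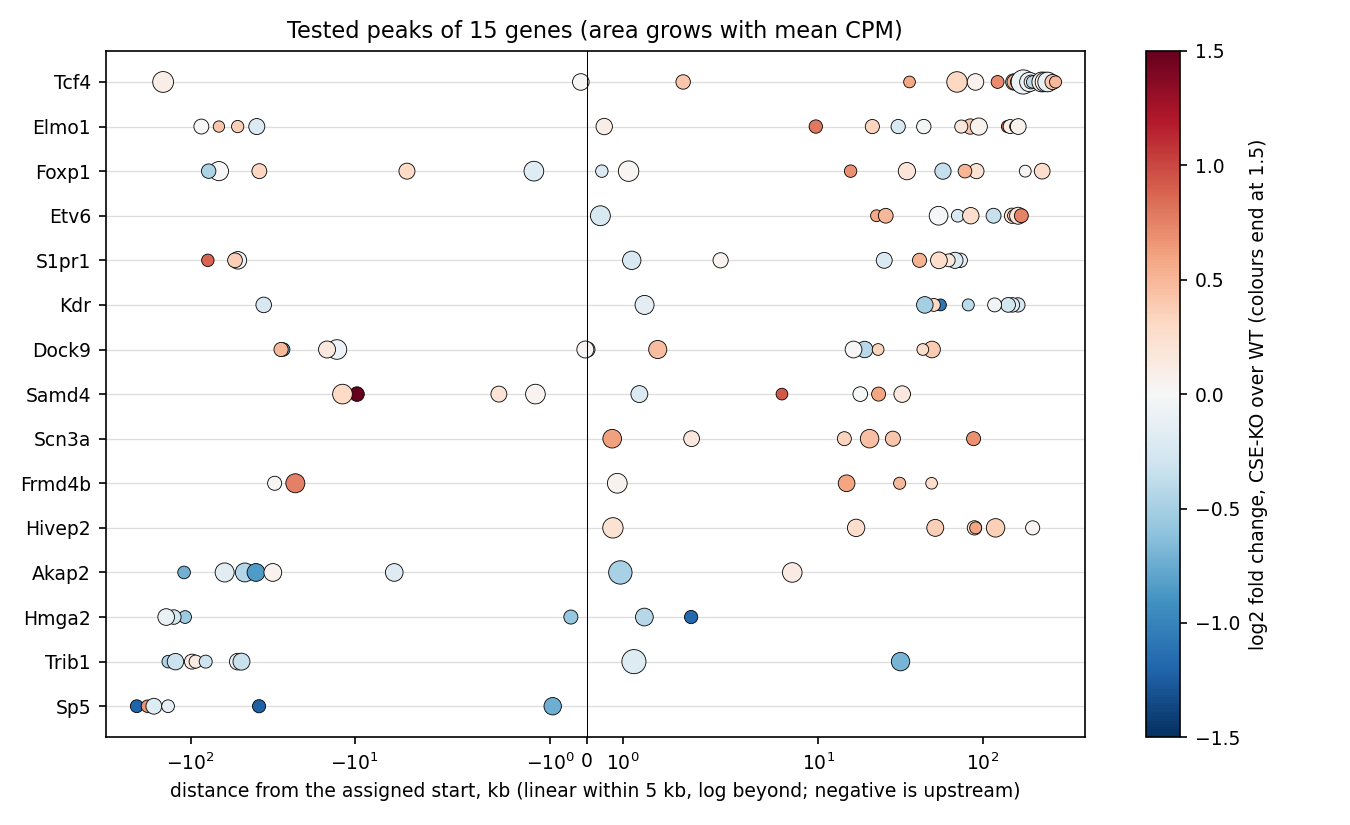
Tested peaks of 15 genes by distance from the assigned transcription start in kb (linear within 5 kb, log beyond), 1 circle per peak, area growing with mean CPM and colour giving the log2 fold change (CSE-KO over WT, colours end at 1.5). Circles of Scn3a, Frmd4b and Hivep2 are all above 0 and those of Hmga2 all below 0, and the darkest red circle is the Samd4 peak at -9.70 kb.

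At the level of single peaks, 1 member peak differed between genotypes. The edgeR test covered 1401 of the 1551 peaks, and 150 fell below the count filter. A single peak had an adjusted p under 0.05, where 0.0868% of all 16134 tested peaks did (14 peaks). It was an intergenic peak of Samd4, whose protein binds RNA and represses translation, at chr14:46872784-46873752, centred at -9.70 kb from the start. Its level was 19.3, 12.9 and 18.1 CPM in WT (13, 4 and 11 reads) and 82.1, 29.2 and 63.7 in CSE-KO (97, 20 and 44 reads). Every CSE-KO library stood above WT, and the log2 fold change was 1.77 ± 0.37 (SE, adjusted p = 0.031). The call was lost when any library but CSE-KO 2 was left out (adjusted p 0.10 to 0.62) by DESeq2's Wald test (0.095) and when peaks on the retroviral repeat MuLV-int were left out of the fit (0.070). Without MuLV-int peaks, 2 of all 16192 tested peaks were called. The sum over all Samd4 peaks was 599, 530 and 523 CPM in WT and 692, 597 and 679 in CSE-KO.

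Peaks of 1 gene seldom lay on the same side of 0. Of the 209 members, 193 had tested peaks on both sides of 0, 11 had all above and 5 all below. The SD of the peaks' log2 fold changes within a member had a median of 0.365, near the median SE of a single member peak, 0.322. Among distal member peaks 57.8% were above 0, and among promoter peaks 53.2%, against 51.8% and 46.9% in other genes. Each peak was also tested against the other peaks of its gene with edgeR's test of differential exon usage, applied to peaks. None of 1400 member peaks had an adjusted p under 0.05, where 0.0345% of 8689 tested peaks did (3 peaks), and 75 member peaks (5.36%) had an unadjusted p under 0.05, against 3.4% of all tested peaks. The smallest adjusted p was 0.175, for the same Samd4 peak, which differed from the rest of its gene by 1.06 on the log2 scale. Without CSE-KO 2 that difference was 1.22 with an adjusted p of 0.041, the single change of call in this test. Taken gene by gene, 0 of 208 members passed the same test, where 0.0965% of 3110 tested genes did (3 genes), and the smallest adjusted p of a member was 0.183 for Tnc. The median peak of a member held 28.5 counts per library. The 95% interval of a peak's fold change lay within 2-fold for 828 of the 1401, and for the rest it reached 2-fold or more. The smallest shift of a single peak that could be detected at this depth was not computed.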

How the data were processed

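The tools named in the submitters' processing notes are STAR 2.7.11a, Trimmomatic 0.39, featureCounts, Picard 3.1.1 and DESeq2 1.36.0. How peaks were called was not stated in the sources read. Each row of the deposited table is a peak, with a raw read count for each of the 6 libraries; 12 deposited normalized per-sample columns were not used. The notes name mm39, but the coordinates follow GRCm38: for 51.7% of the 1551 member peaks the implied start lay within 100 bp of an end of the RefSeq gene (median gap 82 bp). The table holds 75.0% of the 23867 numbered peaks, and 111 further numbered peaks within the spans of 78 members were not analysed here. Genes were matched to RefSeq by symbol (207) or synonym (2).

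Counts were summed per gene symbol and compared by edgeR 4.0.16 under R 4.3.3. Low rows were removed by filterByExpr (minimum count 10), libraries were scaled by TMM, and the two-sided quasi-likelihood F test was adjusted by Benjamini-Hochberg over all genes or peaks tested, at a threshold of 0.05. Levels are CPM after TMM. Peaks within a gene were compared with diffSpliceDGE, and shares with exact permutation tests. The tests of gene sums and of peaks within a gene were checked on simulated data. Named genes were the 12 with most peaks, 6 with the smallest unadjusted p in each direction, those with a called peak, and up to 4 members of each gene list. Some of these are not reported here. Members and lists were chosen with earlier results of these data known. No 2 libraries of a group were alike within counting error: chi-square over its degrees of freedom was 1.85 to 2.15. Alternatives were RLE factors, library size alone, other count filters, a replicate block, DESeq2 1.42.0, other peak numbers or positions, and each library left out. Leaving out peaks annotated as the retroviral repeat MuLV-int, called peaks or peaks outside the gene body, and the share over distal peaks, were chosen after seeing the data.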

Additional observations from a re-analysis of the deposited data

How the results depend on the processing

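No summed total of a member was called under any of the 19 alternatives run, with a smallest adjusted p of 0.057 (Scn3a, replicate block). With all 209 genes tested, 111 to 127 of them lay above 0 against 118 as reported. The count of called member peaks was 1 with RLE factors, library size alone, no filter and the replicate block, and 0 with a mean count of 50 or more (the Samd4 peak was not tested), by DESeq2 and without MuLV-int rows (adjusted p 0.070). Leaving out 1 library gave 0 to 1 called peaks, and 0 to 1 peaks that differ from the rest of their gene. All alternatives kept the sign of both share differences. They ran from 0.053 to 0.296 points for the share of all counts and -1.33 to -0.49 for promoter peaks. As a share of distal counts alone, the members' difference was 0.456 points. Of 35 named totals, 28 kept their sign. Frmd4a turned to 0.0017 with library size alone and 0.063 over distal peaks, Nrp2 to 0.0069 with library size alone and 0.0024 at a mean count of 50 or more, Ski to -0.034 over distal peaks and -0.032 over gene body peaks, and S1pr1 to -0.15 over gene body peaks. Leaving out 1 library gave -0.089 to 0.031 for Frmd4a, -0.056 to 0.079 for Nrp2, -0.050 to 0.094 for Ski, -0.0022 to 0.073 for S1pr1, -0.046 to 0.098 for Foxp1, -0.0064 to 0.12 for Smad6 and -0.033 to 0.17 for Dock9. Besides the genes with such values given above, values that kept their sign moved by over 1.5 times for Elmo1 (0.12 to 0.27), Etv6 (0.047 to 0.12), Asap1 (0.069 to 0.15), Mgat5 (0.025 to 0.15), Rbms1 (-0.064 to -0.0036), Fos (0.11 to 0.26), Dusp1 (0.027 to 0.16) and Ncoa3 (0.062 to 0.35) in the same way. The cause was not tested. With the group mean taken off, same-numbered libraries correlated at 0.065, 0.014 and 0.0051, and differently numbered ones at -0.036 to 0.019. With 3 libraries per group these values cannot decide whether the numbers pair libraries. Among members, the replicate block left 0 called totals, 1 called peak and 0 within-gene differences. Over all genes it gave 17 called totals, against 13 without it.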
